A study of Mus musculus with 9 samples.

Results

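The genes described here encode eukaryotic translation initiation factors, their subunits and the proteins that regulate them directly. They were taken as the genes whose symbol begins with Eif and a digit from 1 to 6. This rule was set with earlier results of these data known. Of the 19938 genes with a row of their own on the array, 49 met it. For 7 of the 49 more than 1 row carried the symbol, and the brightest row, by its mean over 9 arrays, was used. Eif1, Eif2s1, Eif3g, Eif4g1 and Eif4ebp3 had no row named for them alone and were not analysed here, nor was the pair Eif3j1 and Eif3j2, whose 2 rows carry both symbols.

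The samples were 9 mature (metaphase II) oocytes of the outbred ICR mouse strain, each hybridised alone to an Affymetrix Mouse Gene 1.0 ST array. According to the labels, unmated females aged 2 months were given 10 IU of PMSG (pregnant mare serum gonadotropin) and, 46 hours later, 10 IU of hCG (chorionic gonadotropin), and each condition drew on 3 mice. The 3 groups of 3 oocytes differed in how the RNA was prepared. It was purified on Qiagen RNeasy Mini columns, purified on Arcturus PicoPure columns, or left in a crude lysate made with NuGEN direct lysis buffer. All 9 samples then went through the same amplification (NuGEN Ovation One-Direct) and biotin labelling. No genotype other than the strain is given, and oocytes are not tied to individual mice in the labels. The p-values therefore reflect the spread between single-oocyte samples, and a mouse may have given more than 1 oocyte. That spread, here and in every SD below, holds both differences between cells and noise of preparing and amplifying each one. These cannot be told apart, since each oocyte was measured on 1 array. The design asks how the preparation affects what is read from 1 cell.

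Initiation begins when eIF2, bound to GTP, brings the initiator methionyl-tRNA to the small ribosomal subunit together with eIF1, eIF1A, eIF3 and eIF5. The mRNA is recruited through its cap by eIF4E, which binds the scaffold eIF4G. The scaffold in turn binds the helicase eIF4A, and 4E-binding proteins compete with eIF4G for eIF4E. The exchange factor eIF2B reloads eIF2 with GTP, and kinases that phosphorylate eIF2 block this step. A mature oocyte does not transcribe and makes protein from stored messages, many of which are held silent with a short poly(A) tail. Eif4e1b encodes an oocyte-enriched relative of eIF4E, and Eif4enif1 encodes the eIF4E transporter, which binds eIF4E and is found in stored ribonucleoprotein particles.

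Markers fixed for the cell types a sample could hold were counted first. Of 12 oocyte markers, 12 lay above background on all 9 arrays. Of 12 cumulus and granulosa cell markers 1 did (Foxl2) and 6 lay above on no array. The others lay above on 1 or 2 arrays, among them Inhba, with values up to 8.48, and Tnfaip6, up to 8.39. Of 8 blood and immune markers 1 lay above on all arrays (Cd3e) and 6 on none. Of 5 oviduct markers 1 lay above on all (Krt8) and 2 on none, while Pax8 lay above on 8. A gene counted as above background on an array when its log2 value exceeded the 95th percentile of 1231 olfactory, vomeronasal and taste receptor genes there, a level that lay between 7.19 and 7.48. It serves as a working threshold only, since no detection calls were used. Levels of different genes come from different probes and are not ranked against each other.

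Transcripts of most of the 49 genes were read above background in every oocyte. Of the 49 genes, 43 lay above background on all 9 arrays, 2 on some and 4 on none, while 43.1% of all genes lay above on all arrays and 35.1% on none. Single oocytes had between 43 and 45 of the genes above background, with no gap between preparations. The 4 genes above background on no array were Eif1a, Eif5a2, Eif2s3y and Eif4a3l1, each read from 1 row. A further 4 rows that carry Eif1a with other symbols, and 2 that carry Eif4a3l1 with Eif4a3, were not used. For each, a related gene was above background on all 9 arrays, as read from other probes. Eif1a lay between 6.62 and 7.18, and the X-linked Eif1ax, which encodes the same start-codon selection factor, between 12.12 and 12.28. Eif5a2 lay between 6.42 and 6.72, and Eif5a, whose product eases the formation of difficult peptide bonds, between 9.46 and 10.97. Eif2s3y, the Y-linked gene of the eIF2 gamma subunit, lay between 4.21 and 4.55 in these female cells, and its X-linked counterpart Eif2s3x had a median of 11.88 and was at least 11.63 on every array. Eif4a3l1, a gene like Eif4a3, lay between 5.09 and 6.91. Eif4ebp2, a 4E-binding protein gene, was above the level on 3 arrays and Eif2ak2, the kinase activated by double-stranded RNA, on 7.

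**Figure D1:**
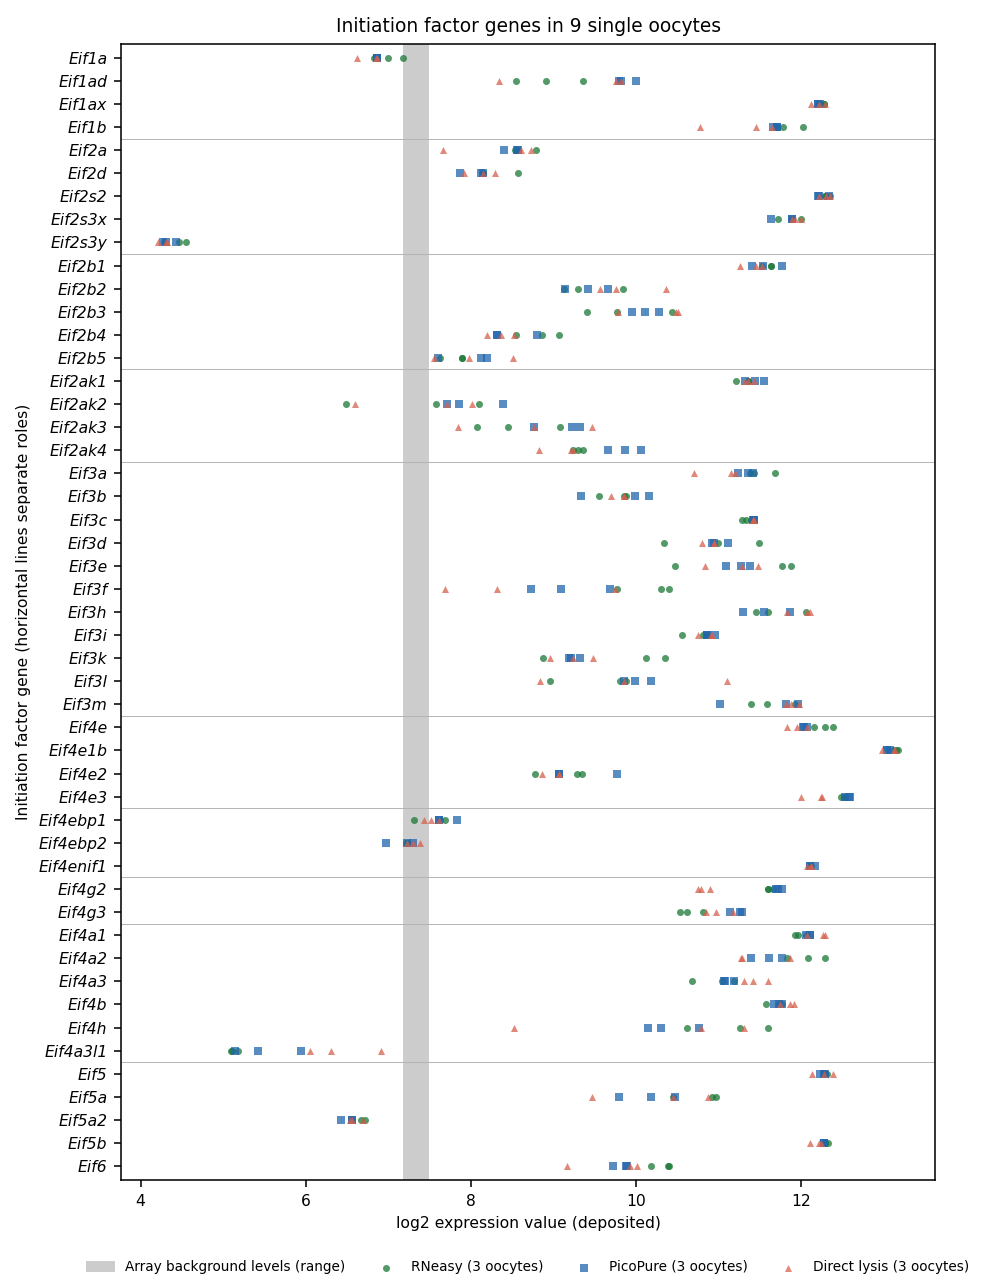
Each row is 1 of the 49 initiation factor genes, grouped by role, and each symbol is the deposited log2 value in 1 oocyte, with the preparation given by colour and shape (3 oocytes each). The grey band is the range of the array background levels, 7.19 to 7.48, and 4 genes lie below it on every array.

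The start-codon and initiator tRNA factors differed in how evenly they were read between oocytes. Eif1ax had an SD of 0.050 log2 units over the 9 oocytes. Eif2s2, the beta subunit of eIF2, lay between 12.20 and 12.35, and its second row between 11.27 and 11.96. Eif1b, a close relative of Eif1, had an SD of 0.346, with 11.64, 11.45 and 10.77 in the crude lysates and 11.65 to 12.02 in purified RNA. Eif1ad, a gene with an eIF1A-like domain, had an SD of 0.617 and lay between 8.34 and 10.00. Eif2a, which encodes a factor distinct from eIF2 that can bind initiator tRNA, had an SD of 0.331, with 7.66 in 1 crude lysate and 8.40 to 8.79 in the other 8 oocytes. The eIF2B genes, Eif2b1 to Eif2b5, were above background in every oocyte, with Eif2b5, the catalytic subunit, between 7.55 and 8.51. Among the eIF2 kinases, the heme-regulated Eif2ak1 varied least, from 11.21 to 11.55. Eif2ak3, the kinase of the endoplasmic reticulum stress response, lay between 7.84 and 9.47, and Eif2ak2 between 6.49 and 8.39.

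All 11 eIF3 subunit genes analysed were above background in all 9 oocytes, but their spread was unequal. Eif3c, a core subunit, had values from 11.28 to 11.42 and an SD of 0.047. Eif3f, which with Eif3h belongs to the MPN-domain subunits, had 10.30, 9.77 and 10.40 with RNeasy, 9.68, 8.72 and 9.09 with PicoPure and 8.31, 9.74 and 7.68 in crude lysate. Its RNeasy values all lay above its PicoPure values. Of the crude lysates, 2 lay below every purified oocyte and 1, at 9.74, lay between the highest PicoPure and the lowest RNeasy value. Eif3l had 8.84, 11.10 and 9.85 in the crude lysates, a wider range than the 8.96 to 10.18 of the 6 purified oocytes. Eif3a, the largest scaffold subunit, lay between 10.70 and 11.68, Eif3e between 10.47 and 11.87 and Eif3h between 11.29 and 12.10.

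The cap-binding genes include the oocyte member of the family. Eif4e1b had 13.17, 13.11 and 13.15 with RNeasy, 13.03, 13.04 and 13.07 with PicoPure and 13.13, 12.98 and 13.12 in crude lysate, an SD of 0.062 over the 9. Its second row lay between 12.85 and 12.94. In the first row the RNeasy values were all above the PicoPure values by a small margin, and the crude lysates overlapped both. In the second row the kits overlapped, at 12.85 to 12.92 with RNeasy and 12.85 to 12.91 with PicoPure. Eif4e, the general cap-binding protein, had 12.29, 12.15 and 12.38 with RNeasy, 12.07, 12.03 and 12.02 with PicoPure and 12.07, 11.95 and 11.83 in crude lysate. Eif4e2, which encodes the repressive relative 4EHP, lay between 8.78 and 9.77. Eif4e3, a further family member, had 12.51, 12.53 and 12.48 with RNeasy, 12.58, 12.59 and 12.53 with PicoPure and 12.25, 11.99 and 12.24 in crude lysate. All 3 crude lysates of Eif4e3 lay below all 6 purified oocytes. Eif4enif1 was the steadiest gene of all 49, with 12.07 to 12.16 and an SD of 0.024. The genes of the 4E-binding proteins stood near the background level, Eif4ebp1 between 7.31 and 7.83 and Eif4ebp2 between 6.97 and 7.38.

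**Figure D2:**
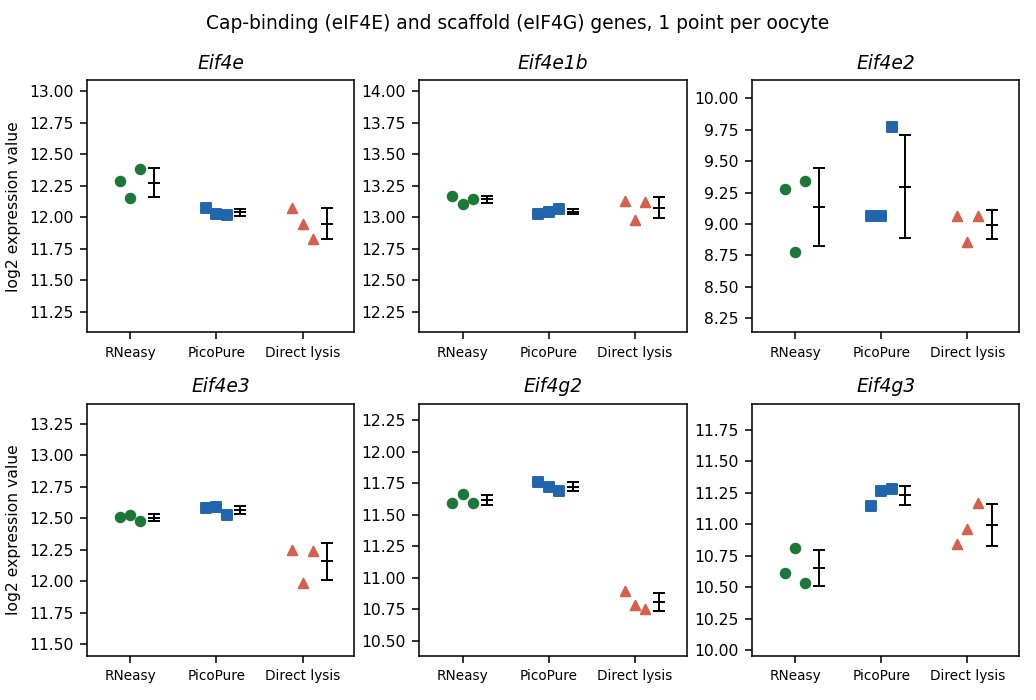
Panels show the log2 value of 4 cap-binding and 2 scaffold genes in each oocyte, by preparation, with the mean and SD of the 3 oocytes as a black bar (each axis spans 2 log2 units). Eif4e1b stays between 12.98 and 13.17, while Eif4g2 falls from 11.59 to 11.76 in purified RNA to 10.75 to 10.89 in crude lysate.

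Of the helicase genes, Eif4a1 lay between 11.92 and 12.29, Eif4a2 between 11.27 and 12.29 and Eif4a3, a core protein of the exon junction complex, between 10.68 and 11.60. Eif4b, which stimulates the helicase, lay between 11.57 and 11.91. Eif4h, a cofactor of the helicase related to eIF4B, had 8.52, 10.78 and 11.31 in crude lysate and 10.14 to 11.60 in purified RNA. Over all 9 oocytes its range of 3.08 log2 units was the widest of the 49. The lowest of the 9 was direct lysis replicate 1. Eif5, the GTPase-activating protein of eIF2, and Eif5b, which joins the ribosomal subunits, were steady at 12.13 to 12.38 and 12.10 to 12.32. Eif6, which keeps the large subunit from joining too early, lay between 9.16 and 10.40.

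The median SD over the 9 oocytes was 0.295 for the 43 genes above background throughout and 0.224 for all 8597 such genes. Within preparations the medians were 0.200 and 0.193. By preparation, the median SD of 3 oocytes for these 43 genes was 0.165 with RNeasy, 0.111 with PicoPure and 0.147 with direct lysis, against 0.149, 0.133 and 0.187 for the 8597. Spread depends on level in these arrays. The median SD of all genes was 0.381 for mean values between 9 and 10 and 0.091 between 12 and 13. The 5 widest of the 43 were Eif3f (SD 0.921), Eif4h (0.910), Eif3l (0.659), Eif1ad (0.617) and Eif2ak3 (0.565), and the 3 narrowest Eif4enif1, Eif3c and Eif1ax.

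**Figure D3:**
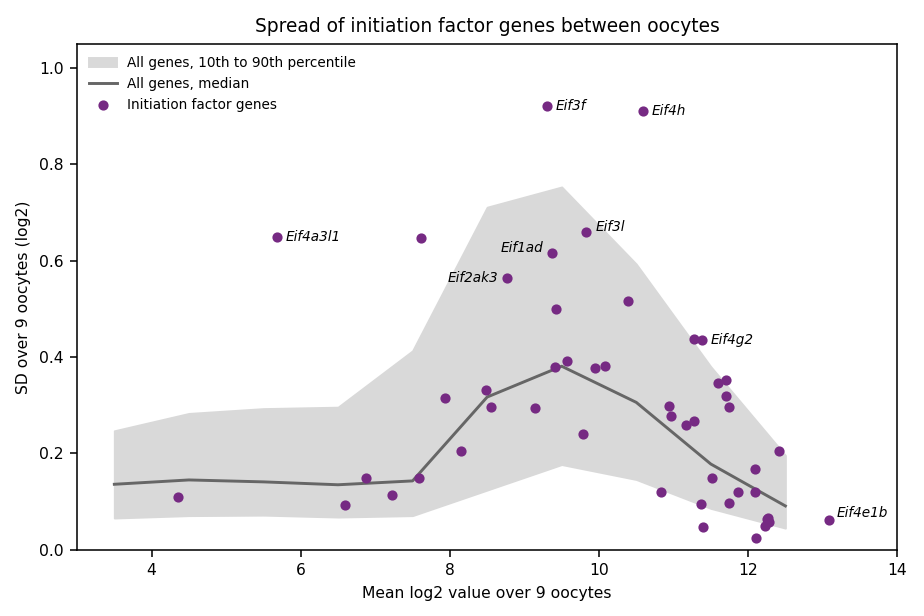
Each purple point is an initiation factor gene, with its mean log2 value over 9 oocytes on the x axis and its SD over the same 9 on the y axis. The grey band and line give the 10th to 90th percentile and the median of all genes in bins of 1 log2 unit (bins of 20 genes or more). Genes above the band include Eif3f and Eif4h, at SDs of 0.921 and 0.910, and Eif4a3l1 and Eif2ak2, at 0.650 and 0.648.

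Crude lysate was then compared with purified RNA. Eif4g2 was lower in crude lysate and was the only one of the 49 genes past the threshold, and 0 were higher (limma, 1 fit over all 9 arrays, adjusted p under 0.05 over 19938 genes). Over all genes 0.667% were called lower and 0.341% higher, so 1 of 49 is a small count. Eif4g2 encodes an eIF4G relative, also called DAP5, that lacks the eIF4E-binding part and serves translation that does not need eIF4E. It had 11.59, 11.66 and 11.59 with RNeasy, 11.76, 11.72 and 11.69 with PicoPure and 10.89, 10.78 and 10.75 in crude lysate. Every crude lysate lay below every purified oocyte, and the SD was 0.07 on each side. The difference was -0.86 ± 0.06 (SE), a 1.82-fold lower level, with an adjusted p of 0.00236 (n = 3 against 6). By p-value Eif4g2 ranked 3rd of the 19938 genes. It was lower than RNeasy by -0.81 (adjusted p = 0.00693) and lower than PicoPure by -0.91 (adjusted p = 0.00497), comparisons that share the crude lysates. Against RNeasy it was the 1 gene of 49 called, beside 0.436% of all genes (0.166% higher, 0.271% lower), and likewise against PicoPure, beside 0.597% (0.171% higher, 0.426% lower). Over 19 alternative settings the difference ran from -0.91 to -0.74 and the adjusted p from 0.00118 to 0.018. The mean log2 level of the oocyte markers was 12.13 to 12.29 in crude lysate and 12.18 to 12.27 in purified RNA. That of the cumulus and granulosa markers was 6.83 to 7.02 in crude lysate, 6.82 to 7.37 with RNeasy and 6.75 to 6.88 with PicoPure. The crude preparation lacked the column step and used another lysis buffer, and the effects of these cannot be told apart.

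Eif4e3 came next among the genes above background, at 12.16 ± 0.14 (SD, n = 3) without a column and 12.54 ± 0.04 (SD, n = 6) after one. Its difference of -0.38 ± 0.07 (SE, 95% interval -0.54 to -0.22) had an adjusted p of 0.0583. It passed in 2 of 19 settings, with a trended and robust variance (adjusted p = 0.0338) and with values raised to background (0.0485), within a range of 0.0338 to 0.148. Eif2ak4, the kinase that senses uncharged tRNA, differed by -0.49 ± 0.12 (adjusted p = 0.126) and Eif4a3 by 0.41 ± 0.12 (adjusted p = 0.187). Eif4a3l1 had the largest positive difference, 1.10, but lay below background on every array and did not pass (adjusted p = 0.0723). For Eif4e1b the difference was -0.02, with a 95% interval from -0.14 to 0.11 and an adjusted p of 0.914. Eif4e had -0.21 (-0.38 to -0.04), with an adjusted p of 0.272, and 0.00 with the mean over its rows. The interval of Eif4h, by contrast, ran from -1.89 to 0.74, and that of Eif3f from -2.09 to -0.08 (adjusted p = 0.673 and 0.318), so for them these data leave a wide range of possible differences.

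In all, 31 of the 49 genes had a negative difference and 18 a positive one, with a median of -0.07, while the median of all genes was 0.00. After centring each array on its median the numbers were again 31 and 18 and the median was -0.07. Under a further quantile normalization the numbers were 24 and 25 and the median was 0.00, so no common direction of the group held across all scalings. The arrays did not overlap between the sides for 2 genes above (Eif4a3 and Eif4a3l1) and 5 below (Eif4g2, Eif4e3, Eif3a, Eif1b and Eif5b), against 4.31% and 3.72% of all genes. At an unadjusted p under 0.05 there were 10 of 49, against 14.2% of all genes. By role, all 4 cap-binding genes had negative differences (median -0.21), but under quantile normalization that of Eif4e1b was 0.01. With the mean over the rows of a gene, Eif4e1b had 0.01 and Eif4e 0.00. All 4 eIF2 kinase genes had negative differences (median -0.19), but under quantile normalization that of Eif2ak1 was 0.09. The 4 eIF1 and eIF1A genes also all had negative differences (median -0.13). Of these, Eif1a lay below background on every array, and the differences of Eif1ad and Eif1ax changed sign in 3 and 2 of 19 settings. Over all genes 10098 differences were positive and 9840 negative. The median of the 11 eIF3 genes was 0.01.

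**Figure D4:**
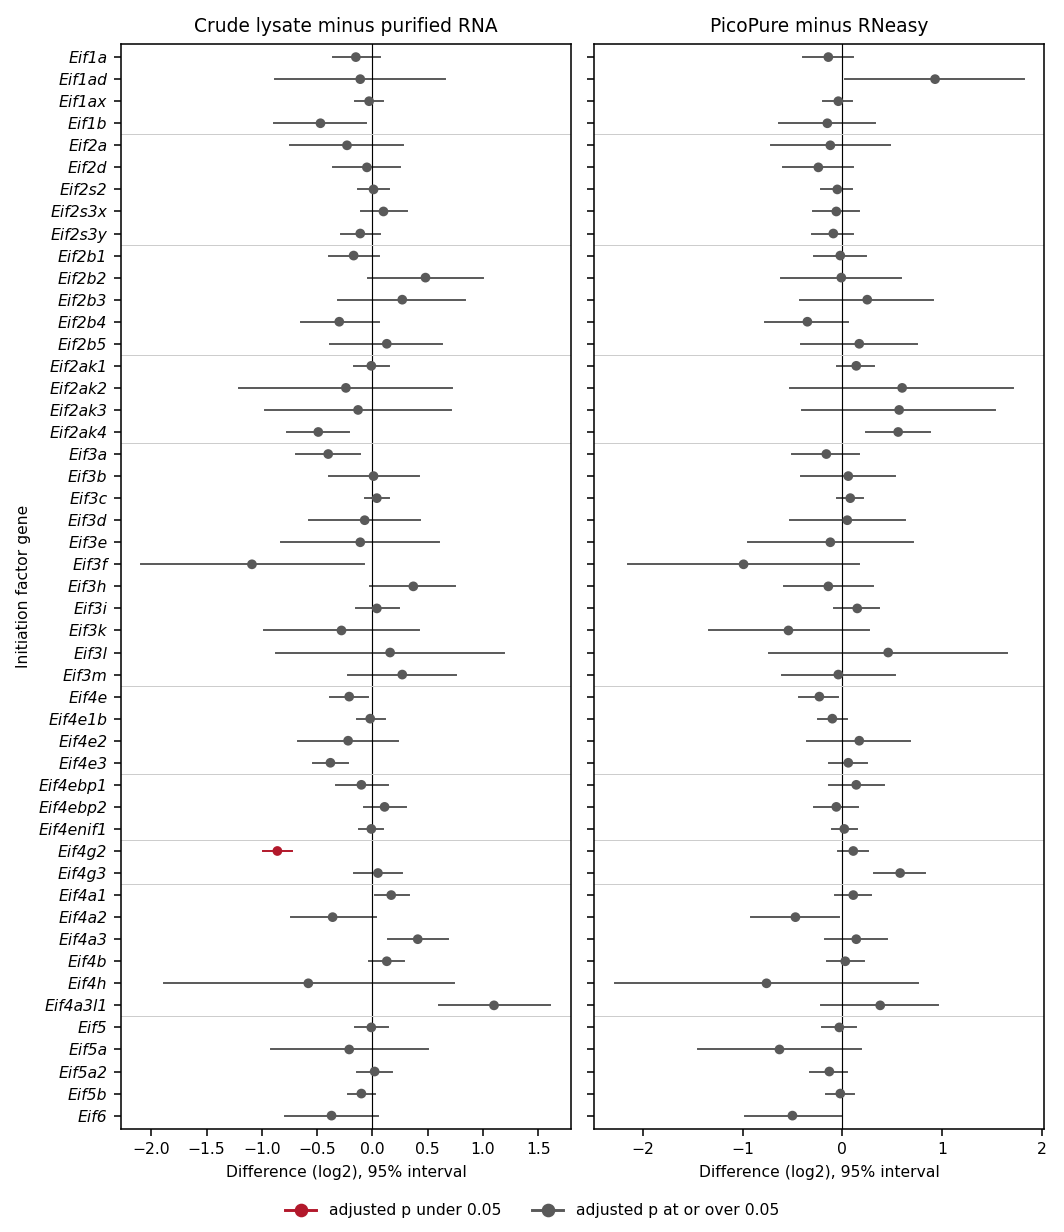
Differences of the 49 genes on the log2 scale, as points with 95% intervals from the fit, for crude lysate minus purified RNA (left) and PicoPure minus RNeasy (right). Eif4g2 at -0.86 on the left is the only gene drawn in red, past an adjusted p of 0.05, and the intervals are widest for Eif4h.

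Between both column kits no initiation factor gene passed the test, and 6 of 49 had an unadjusted p under 0.05 (limma). Over all genes 0.0602% were called (0.0401% higher with PicoPure and 0.0201% lower), and 7.98% had such a p. Eif4g3, which encodes a form of the scaffold that binds eIF4E, had the smallest p. It had 11.14, 11.26 and 11.28 with PicoPure and 10.61, 10.81 and 10.53 with RNeasy. The PicoPure values all lay above the RNeasy values, and the crude lysates, at 10.84, 10.96 and 11.17, overlapped the PicoPure range. The difference was 0.58 ± 0.11 (SE, 95% interval 0.32 to 0.83), with an adjusted p of 0.197. Eif2ak4 had 9.86, 9.66 and 10.06 with PicoPure and 9.23, 9.30 and 9.36 with RNeasy, a difference of 0.56 ± 0.14 (adjusted p = 0.348). Its crude lysates, at 9.24, 8.82 and 9.21, were like those of RNeasy or lower. Eif4e differed by -0.23 (adjusted p = 0.552), Eif4a2 by -0.47 (0.597) and Eif1ad by 0.93 (0.611). The values did not overlap between kits for 6 genes above and 6 below, against 6.92% and 7.03% of all genes. The median difference of the 49 was -0.02, with 22 positive and 27 negative, and after centring each array on its median it was 0.02, with 28 positive and 21 negative. All 4 eIF2 kinase genes had positive differences, from 0.14 to 0.60, also after quantile normalization and median centring, and none passed. Other roles were as one-sided in the main fit. All 5 genes of eIF2 and initiator tRNA delivery had negative differences, as had all 5 of eIF5, eIF5A, eIF5B and eIF6. Over all genes 8280 differences were positive and 11655 negative.

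In the test of any difference among the 3 preparations, Eif4g2 again was the 1 gene of 49 called (moderated F, adjusted p = 0.00605), beside 0.637% of all genes. Eif2ak4 followed at an adjusted p of 0.105 and Eif4e3 at 0.117.

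Genes that act beside the initiation factors were taken from 4 lists. Of 12 genes for scanning, start and recycling partners 1 was lower in crude lysate and 0 higher, with 7 above background on all arrays and a median difference of -0.08. Over all genes 0.667% were called lower and 0.341% higher. It was Ddx3x, an RNA helicase that helps ribosomes through structured leaders and binds eIF4F components. Ddx3x averaged 12.32 ± 0.04 (SD, n = 3) without a column and 12.62 ± 0.04 (SD, n = 6) after one, a difference of -0.30 ± 0.05 (adjusted p = 0.0379). The call held in 6 of 19 settings, with adjusted p from 0.0149 to 0.121, and was lost when any 1 of the 9 arrays was left out. With the mean over both rows of the gene the difference was -1.70. A second Ddx3x row, looked at after its values were seen, had 8.68, 6.87 and 7.27 in crude lysate and 10.27 to 11.09 in purified RNA. That row differed by -3.10 ± 0.38 (adjusted p = 0.0181 over all rows with 1 symbol). Only 2 of its 3 crude lysates were above background, 1 of them by little (7.27 against a level of 7.26), so the size of this difference is uncertain.

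No gene passed in the other 3 lists in either comparison. Among 14 poly(A)-binding proteins and partners, 13 of which were above background throughout, the median difference was -0.01. Larp1, which binds messages with a terminal oligopyrimidine tract, differed by 0.31 (adjusted p = 0.125) and the nuclear poly(A)-binding protein gene Pabpn1 -0.34 (0.214). Between the kits Paip2b, an inhibitor of poly(A)-binding protein, had -0.25 (adjusted p = 0.457) and Pabpn1 0.30 (0.606). Among 18 genes of mTORC1 and the kinase control of eIF4E and eIF2 the median was -0.09. Rheb, the GTPase that activates mTORC1, had -0.50 (adjusted p = 0.221) and Pdcd4, an inhibitor of eIF4A, -0.22 (0.308). Between the kits Mtor had 0.53 (adjusted p = 0.434) and Rps6 -0.34 (0.511). Among 13 elongation and release factors the median was -0.01. Eef1b2, an exchange factor of eEF1A, had -0.85 (adjusted p = 0.155) and Pelo, which rescues stalled ribosomes, had 0.39 (0.224). Between the kits Eef2k, the kinase of eEF2, had 0.64 (adjusted p = 0.278) and the release factor gene Gspt2 -0.31 (0.314).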

How the data were processed

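The deposited table holds 1 value per row and array (35556 rows, 9 arrays, 0 missing). The authors' values are read here as log2 expression from their range (2.41 to 13.90, array medians 7.12 to 7.24), since no source states the scale. The submitters' processing notes name the programs GCOS and Affymetrix Expression Console and the method GCRMA, with no role stated. Coordinates were left out (genome build: not given in the sources used here). Scanner files were not used, so background correction and normalization were not repeated, and the number of arrays limits the precision.

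Symbols came from GEO's platform annotation: 21789 had 1 symbol, 1621 several and 12146 none, and only rows with 1 symbol were used. By Entrez identifier 21698 matched RefSeq (GRCm38.p6), which changed 0 symbols. The row with the highest mean represented each gene. Rows whose probes match near-identical gene copies may share signal.

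The tests used lmFit and eBayes of limma 3.58.1, run in R 4.3.3 (3 groups, 6 residual degrees of freedom, no filter), two-sided, with Benjamini-Hochberg adjustment over 19938 genes at 0.05. In simulated data, 19938 genes had independent normal noise with the estimated variances, and changes were placed only in genes above the median level. Between crude lysate and purified RNA, 24% of changes of 0.5 log2 units and 75% of changes of 1 were recovered, with 5 false calls. Between the kits it was 18% and 64%, with 6 false calls. Real noise may differ, so these shares need not hold for dimmer genes or for these arrays.

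The members and the gene lists were chosen with earlier results of these data known. The rule for named genes took the cap-binding genes, a fixed panel of 1 or more genes per role, every gene past the threshold, the 5 smallest p of each comparison, the 5 widest and 3 narrowest genes, those above background on no array and, of each partner list, genes past the threshold or, with none, the 2 smallest p of each comparison. Eif1b, Eif2a, Eif2d and the second rows were named after their values were seen. Alternatives were quantile normalization, median centring, a filter on level, values raised to background, the mean over rows, a trended robust variance, array weights, a replicate block, each kit alone and each array left out.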

Additional observations from a re-analysis of the deposited data

Results flagged for a closer look

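Among the 6 purified oocytes, 1 oocyte stood apart from the other 5 for 5 genes, by a gap to the nearest value of over 0.625 of the whole range (Dixon's 95% critical value). In all 50 sets of 6 values were examined. Chance marks about 1 in 20 only where genes are chosen without regard to their values and the 6 values share 1 distribution. Eif3l was named for its wide spread over oocytes that include these 6, and every set pooled both kits. The number of flags therefore cannot be judged against that rate. Eif4a3 had 10.68 in RNeasy replicate 1 against 11.04 to 11.18 in the others. Eif3l had 8.96 in the same oocyte against 9.80 to 10.18. Eif4ebp2 had 6.97 in PicoPure replicate 1 against 7.21 to 7.30, values around the background level. Eif4enif1 had 12.16 in PicoPure replicate 3 against 12.09 to 12.11, and Eif5b 12.32 in RNeasy replicate 2 against 12.27 to 12.28, gaps that are small in log2 units.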

How the results depend on the processing

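Eif4g2 stayed past the threshold, lower in crude lysate, in all 19 alternatives. The number of initiation factor genes called there was 2 in place of 1 with values raised to background and with a trended robust variance, both times by the addition of Eif4e3, and 1 in each other setting. Between the kits it was 0 in every setting (limma, 2 to 10 at an unadjusted p under 0.05). With the background level at the 90th or 99th percentile of the receptors or at the median of all genes, 44, 37 or 42 genes lay above it on all arrays in place of 43. The titles number the replicates, and the labels do not say whether equal numbers share anything. Deviations from the group means had correlations from -0.089 to 0.134 between same-numbered oocytes. Between differently numbered oocytes they ran from -0.108 to 0.171. With 3 oocytes per group such correlations cannot settle whether the samples are paired. With a replicate block 1 initiation factor gene was called for crude lysate, and over all genes 25 in place of 201 for crude lysate, 0 in place of 12 between the kits (1549 at an unadjusted p under 0.05, limma) and 14 in place of 127 among the 3 preparations. Over all genes crude lysate gave 87 calls against RNeasy alone and 119 against PicoPure alone. With 1 array left out it gave 24 to 232, fewest without RNeasy replicate 1, and 24 to 116 without each of the purified arrays. The kits gave 0 to 15, with 0 without RNeasy replicate 1, PicoPure replicate 2 or PicoPure replicate 3 (1439, 1351 and 1259 at an unadjusted p under 0.05, limma), and the 3 preparations 4 to 96, fewest without RNeasy replicate 1. Between the kits 0 genes passed with a trended robust variance (1595 at an unadjusted p under 0.05) and 51 with array weights. Under quantile normalization crude lysate had 101 higher and 83 lower calls in place of 68 and 133, so the share of higher calls was 54.9% in place of 33.8%. Of 96 comparisons of named genes not past the threshold, 39 changed sign in at least 1 setting.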

Other observations

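Rows of the same gene did not always move together. The 3 rows of Eif4e differed between crude lysate and purified RNA by -0.21, -0.13 and 0.34 (limma over all rows with 1 symbol, adjusted p = 0.276, 0.584 and 0.147). The third lay between 7.46 and 8.17. The 3 rows of Eif4a1 all had positive differences, 0.17, 0.25 and 0.15, none past the threshold. The rows of Eif5a had -0.21 and 0.15.

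Several rows held the same value, to 3 decimals, on 3 or more arrays, across preparations. This was so for 10 of the 49 initiation factor genes (20.4%) and for 6090 of all 19938 genes (30.5%). Eif4ebp2 had 7.23 on 4 arrays, Eif2d, which encodes a factor that can deliver tRNA without GTP, had 8.15 on 4, and Eif5 had 12.27 on 3. Of the initiation factor genes 0 had such a value on 5 or more arrays, and of all genes 999 (5.01%). How equal values arose was not tested.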
